A study of Homo sapiens with 4 samples.

Results

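The cyclins described here are CCND1, CCND2 and CCND3 (cyclins D1 to D3), CCNE1 and CCNE2 (cyclins E1 and E2), CCNA2, CCNB1, CCNB2, CCNF and CCNG2. They were taken as every probe set that the array's gene table assigned to exactly 1 of these genes. This gave 26 probe sets for 10 genes, among 54613 probe sets and 19775 genes in all. The samples were PC3 cells, an established line grown from a bone metastasis of a human prostate cancer and kept in 10% fetal bovine serum. One group of 2 arrays came from cells transfected with 40 nM of an siRNA against COUP-TFII, a transcription factor of the nuclear receptor family. The other group was 2 arrays from cells given 40 nM of control siRNA, and all cells were sampled at 48 h. The labels do not say whether the arrays of a group came from separate transfections, so the p-values reflect only how these arrays varied, which may be technical variation. They also give no sequence for either siRNA and no second siRNA against COUP-TFII, and the targeted transcript was not analysed here.

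Cyclins are the regulatory subunits that activate cyclin-dependent kinases (CDKs), and several rise and fall within each cell cycle through timed transcription and ubiquitin-dependent destruction. D-type cyclins respond to growth signals and drive CDK4 and CDK6 in G1, and cyclin E drives CDK2 at the entry into S phase. Cyclin A2 acts in S phase and G2, and B-type cyclins bind CDK1 for mitosis. Cyclin F is the substrate receptor of a ubiquitin ligase and activates no CDK, and cyclin G2 is an atypical member linked to cell cycle arrest. In a population of growing cells a transcript level mixes the level per cell with the share of cells in the phase that expresses it, and bulk arrays cannot tell these apart.

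The 4 arrays were alike in overall intensity, with medians from 31.7 to 32.9. Replicate arrays correlated at r = 0.988 for COUP-TFII siRNA and 0.987 for control siRNA over all probe sets, whereas pairs with 1 array from each group correlated at 0.975 to 0.979. Among the epithelial and PC3 markers, KRT8, KRT18, KRT19 and EPCAM had group means from 4266 to 9819. For CD44, CDH1 and VIM the group means ran from 1725 to 4049. Of all 7 epithelial and PC3 markers, 4 fell (CD44 at a log2 fold change of −0.72, VIM at −0.36, CDH1 at −0.30 and EPCAM at −0.24), KRT8 (0.16) and KRT18 (0.13) rose, and KRT19 did not pass. With probe sets averaged CD44 was at 0.03, VIM at −0.26 and KRT18 at 0.13, none of them passing (limma adjusted p = 0.868, 0.273 and 0.0801). In that setting CDH1 (−0.42), EPCAM (−0.24) and KRT8 (0.16) still passed. EPCAM lost its call without control replicate 1 or 2 (−0.26 to −0.22 with 1 array left out). With arrays centred on housekeeping genes, described below, EPCAM (−0.01), CDH1 (−0.07) and VIM (−0.14) did not pass (limma adjusted p = 0.81, 0.369 and 0.0553). CD44 (−0.49), KRT8 (0.39) and KRT18 (0.36) passed with that centring. The calls of CDH1, KRT8 and KRT18 were lost with any one array left out (limma adjusted p = 0.0541 to 0.218, 0.0911 to 0.26 and 0.109 to 0.355). Of 5 measured luminal prostate markers 2 lay above the median probe set. TMPRSS2 averaged 391.6 with COUP-TFII siRNA and 144.3 with control siRNA, while KLK2 and KLK3, which PC3 cells are known to lack, stayed at group means of 15.5 to 21.5. The log2 fold change of TMPRSS2 was 1.35, and 0.69 with probe sets averaged, where it still passed (limma adjusted p = 0.0064). COL1A1, a fibroblast marker, rose by 0.73, but by 0.34 with probe sets averaged, without passing (limma adjusted p = 0.0546). Fibroblast markers summed to 1100 to 1115 in the COUP-TFII siRNA arrays and 702 to 793 in the control arrays, most of it from COL1A1, while the summed leukocyte markers were at 91.7 to 118.8 with COUP-TFII siRNA and 93.4 to 97.7 with control siRNA. For ACTB, whose 3′ control signal divided by its 5′ control signal reports on RNA integrity, this ratio was 1.42 and 1.46 in the COUP-TFII siRNA arrays and 1.52 and 1.83 in the control arrays. For GAPDH the same ratio was 0.994 and 0.986 in the COUP-TFII siRNA arrays and 0.957 and 0.986 in the control arrays. The part of the ACTB difference in the results below was not tested.

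With COUP-TFII siRNA the cyclins of S phase and mitosis fell, the 2 cyclin E genes moved in opposite directions, and CCND1 was the only D-type cyclin to pass. CCNA2 fell most, to 26.8% of its control intensity. Of the 10 genes, 5 fell (CCND1, CCNE2, CCNA2, CCNB1 and CCNB2), 2 rose (CCNE1 and CCNG2) and 3 did not pass (CCND2, CCND3 and CCNF). Calls were made with limma at an adjusted p of 0.05 over all 19775 genes, of which 10.3% passed as lower and 12.7% as higher (23.0% in all). Centring the arrays on housekeeping genes ended the call of CCND1 and made CCND3 pass as higher. That centring used the median level of the 11 housekeeping genes measured on each array. This was the level of PGK1 on both COUP-TFII siRNA arrays and control replicate 1, and of TFRC on control replicate 2. The setting thus scaled mainly to PGK1, which itself passed as lower (log2 fold change −0.26). Over the 11 genes the median log2 fold change was −0.05. HPRT1 also fell (−0.77) and SDHA rose (0.20, limma adjusted p = 0.0275). PGK1 lost its call without COUP-TFII siRNA replicate 2 or either control array (−0.29 to −0.22 with 1 array left out). SDHA lost its call with any array left out (0.17 to 0.23). PPIA was dim, with group means of 10.1 for COUP-TFII siRNA and 6.0 for control siRNA. With probe sets averaged HPRT1 was at −0.26 and did not pass (limma adjusted p = 0.179). The median log2 fold change of the 10 genes was −0.31, against 0.01 for all genes. The intensities of the groups did not overlap for 7 genes that were lower and 2 that were higher, where 26.7% and 30.8% of all genes were lower or higher without overlap. Log2 fold changes are of intensity + 16, which understates changes of dim probe sets, whereas ratios given as a percentage or as times are of the deposited intensities without the 16.

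**Figure D1:**
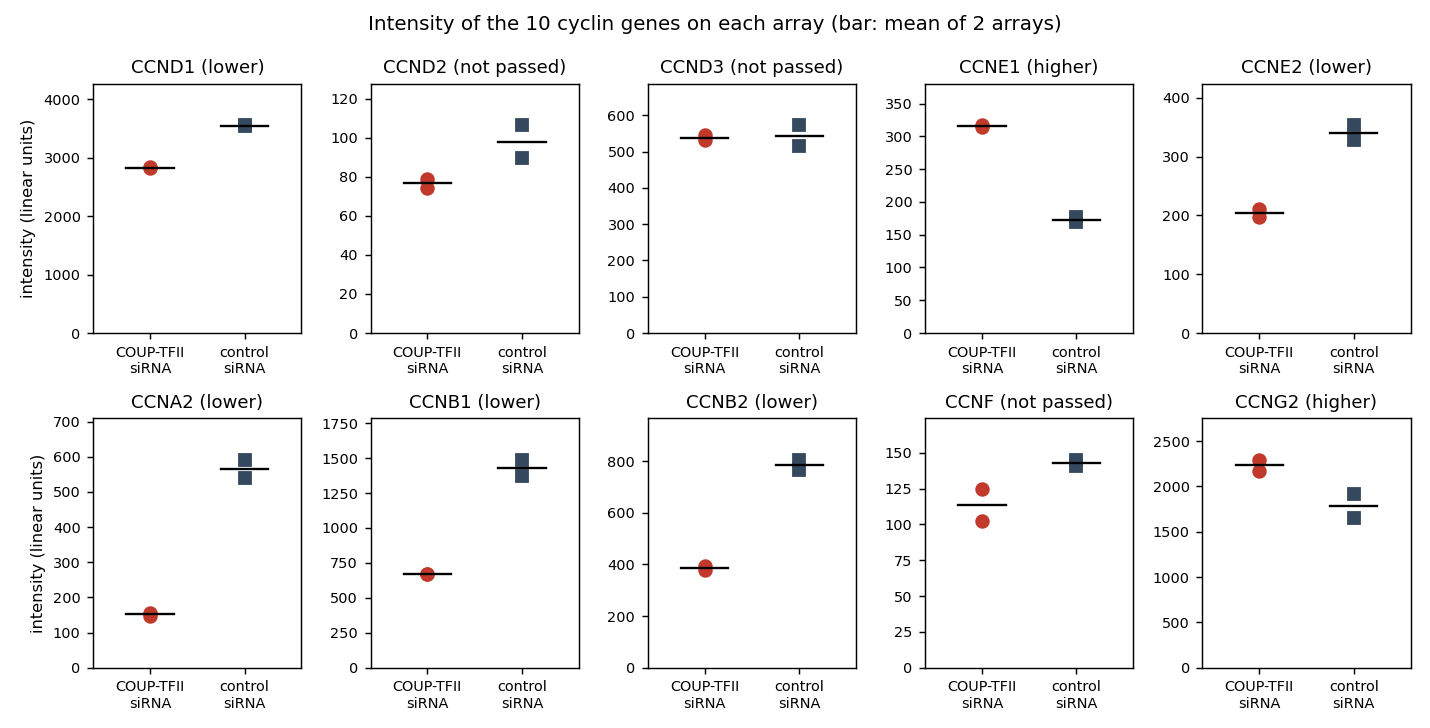
Intensity (linear units, vertical axes from 0) of the probe set used for each of the 10 cyclins on each array, COUP-TFII siRNA (circles) left of control siRNA (squares), with bars at the means of 2 arrays. CCNA2, CCNB1, CCNB2 and CCNE2 sit clearly lower in the COUP-TFII siRNA arrays, CCNE1 sits higher, and CCND3 overlaps.

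The promoters of the genes that moved furthest are shown first, because CCNA2, CCNB1 and CCNB2 fell together while CCNE1 rose. Genes of G2 and mitosis are known to carry a CCAAT box, bound by the factor NF-Y, and a CHR element, bound by the DREAM and MuvB complexes. The search covered 250 bases before to 50 bases after each annotated start, and the windows printed are the 150 bases before it, from RefSeq on GRCh38.p14. Capitals mark matches, on either strand, to the CCAAT box and to 4 spellings of the CHR element. The first spelling is TTTGAA, which is the usual one. The second is TTCGAA, which is less common. The third is TTTAAA, which reads the same on both strands and resembles the A/T-rich letters of a TATA box. The fourth is CTTGAA, which like the third was added after the promoters were seen. Capitals also mark 4 spellings of the E2F element, beginning with TTTGGCG, which is close to its consensus. The next is TTTCCCG, which is also common. The other two are TTTCGCG, with a central CG, and then TTTGCCG, the last one. The forkhead core searched was GTAAACA. No matches of different elements overlapped in the windows printed.
CCNA2, chr4:121823884-121824033, minus strand: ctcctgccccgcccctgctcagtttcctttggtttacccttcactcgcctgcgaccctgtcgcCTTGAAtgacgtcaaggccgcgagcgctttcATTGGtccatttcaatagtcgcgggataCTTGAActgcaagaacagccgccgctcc
CCNB1, chr5:69167000-69167149, plus strand: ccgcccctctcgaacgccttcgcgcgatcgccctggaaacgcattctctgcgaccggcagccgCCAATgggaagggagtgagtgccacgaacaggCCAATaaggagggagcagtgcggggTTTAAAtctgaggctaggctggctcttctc
CCNB2, chr15:59104996-59105145, plus strand: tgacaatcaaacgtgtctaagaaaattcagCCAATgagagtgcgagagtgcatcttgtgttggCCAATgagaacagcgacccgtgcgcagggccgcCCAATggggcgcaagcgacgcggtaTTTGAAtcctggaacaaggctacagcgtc
CCNE1, chr19:29811841-29811990, plus strand: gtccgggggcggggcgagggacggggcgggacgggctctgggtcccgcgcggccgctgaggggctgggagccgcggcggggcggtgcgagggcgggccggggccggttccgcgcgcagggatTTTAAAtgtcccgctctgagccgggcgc

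CCNA2, CCNB1 and CCNB2 each held a CCAAT box upstream of a CHR spelling, but neither the spelling nor the strand was the same in all of them. A CHR spelling began 28 bases before the start in CCNA2, 30 in CCNB1 and 29 in CCNB2. It was the fourth spelling in CCNA2, the third in CCNB1 and the first in CCNB2, and neither CCNA2 nor CCNB1 had a match to the first or the second. A CCAAT box began 28 bases upstream of it in CCNA2, 25 in CCNB1 and 25 in CCNB2, on the minus strand in CCNA2 and the plus strand in CCNB1 and CCNB2. CCNA2 held another match to the fourth spelling, 87 bases before the start, with no CCAAT box upstream. CCNB2 held a match to the third spelling 193 bases before the start. Over all 35116 promoters of the same 300 bases, 34.6% held a CCAAT box, 16.4% the first or second CHR spelling and 21.3% the third or the fourth. Because the third and the fourth spelling were added after these promoters were seen, their matches here are a description only.

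The other cyclins with a promoter in the table differed in these letters. CCNE1 had no CCAAT box and 1 match to the third CHR spelling, 28 bases before its start, and the window printed was 80.7% G and C. CCNF, which did not pass, held 4 CCAAT matches and 2 CHR matches in the 300 bases searched, and its closest pairs were 6, 17 and 21 bases apart. CCNG2 had no CCAAT box, 1 match to the third CHR spelling at 73 bases before the start and the only E2F match among the cyclins, where 8.67% of all promoters held any of the 4 E2F spellings. The 3 annotated starts of CCND3 held a CCAAT box each in 2 windows and a forkhead core in the other, which 3.42% of all promoters also had. The promoters of CCND1, CCND2 and CCNE2 were not analysed here. A match is a run of letters, not a bound site.

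**Figure D2:**
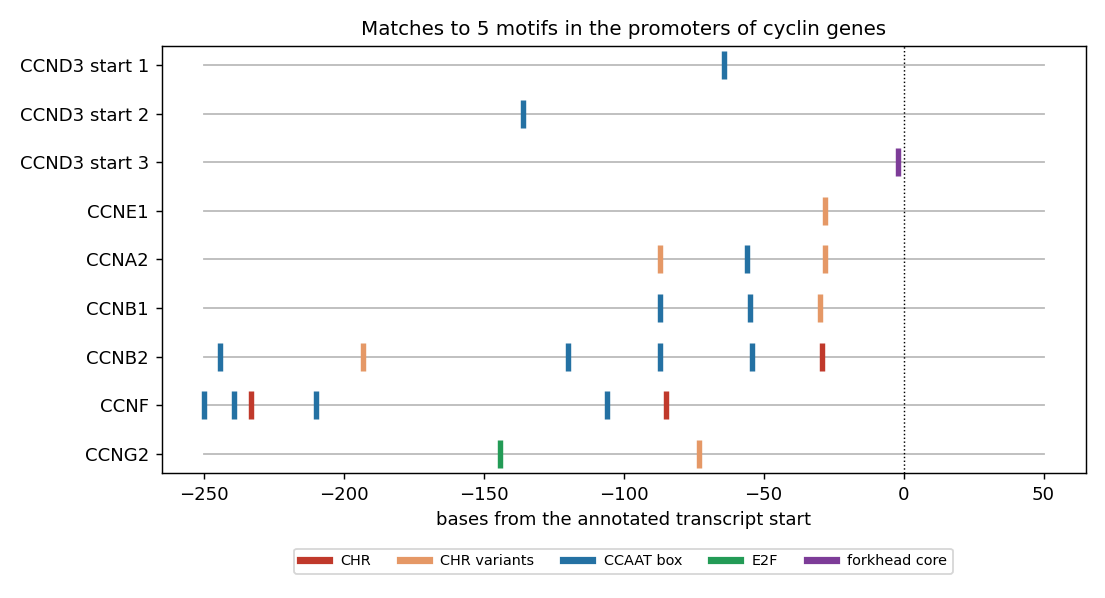
Positions of motif matches in 9 promoters of 7 cyclin genes, with bases from the annotated start on the horizontal axis and 1 row per promoter. CCNA2, CCNB1 and CCNB2 each have a CCAAT box (blue) just upstream of a CHR spelling (red or orange) that lies 28 to 30 bases before the start.

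Among the D-type cyclins only CCND1 passed. CCND1 had intensities of 2814 and 2836 in the COUP-TFII siRNA arrays, against 3553 and 3532 in the control arrays. The groups lay far apart relative to the spread within them, but the change was small, a mean of 2825 ± 16 with COUP-TFII siRNA against 3543 ± 15 with control siRNA (SD, n = 2 each). The log2 fold change was −0.33 ± 0.05 (SE, adjusted p by limma = 0.00101). Its second probe set, 208711_s_at, had 2086 and 2013 in the COUP-TFII siRNA arrays and 2419 and 2721 in the control arrays, a log2 fold change of −0.32 (adjusted p by limma = 0.0206) that did not pass with any one array left out (0.0908 to 0.21), where the alternatives together spanned 0.000166 to 0.276. Centring the arrays on housekeeping genes, which moved the median of all genes up to 0.24, left CCND1 at −0.10 (limma adjusted p = 0.107, in a range over all alternatives from 6.83e-07).

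CCND3, a D-type cyclin with a known role in lymphocyte development, had 544.9 and 531.8 with COUP-TFII siRNA and 573.0 and 515.5 with control siRNA. The groups overlapped, and the log2 fold change was −0.01 with a 95% interval from −0.20 to 0.17 (limma adjusted p = 0.941). After centring on housekeeping genes it was 0.21 (limma adjusted p = 0.0421). Its other probe set, 1562028_at, read 1 on all 4 arrays, as from a floor.

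CCND2 was dim in these cells. Its brightest probe set, 231259_s_at, had 74.2 and 79.1 with COUP-TFII siRNA and 89.6 and 106.5 with control siRNA. These groups did not overlap, yet the log2 fold change of −0.30 ± 0.16 (SE) did not pass (limma adjusted p = 0.252, 95% interval −0.66 to 0.07). It ran from −0.40 to −0.19 with 1 array left out and was −0.07 after centring on housekeeping genes. The other 3 CCND2 probe sets had group means from 4.4 to 27.6, below the array medians, and none passed.

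CCNE1 rose and CCNE2 fell. CCNE1 had 317.1 and 314.3 in the COUP-TFII siRNA arrays, against 169.2 and 176.7 in the control arrays, 1.83 times as much (means of 316 ± 2 for COUP-TFII siRNA and 173 ± 5 for control siRNA, SD, n = 2 each). The log2 fold change was 0.81 ± 0.10 (SE, adjusted p by limma = 0.000458), and CCNE1 ranked 377th among the 19775 genes by size of rise. The second CCNE1 probe set, 242105_at, lay at 1 to 1.46 on every array and carried no measurable signal. Averaging the 2 probe sets therefore gave a log2 fold change of 0.39 that did not pass (limma adjusted p = 0.0966, in a range over all alternatives from 7.48e-09).

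CCNE2 had 210.0 and 197.2 in the COUP-TFII siRNA arrays, against 328.4 and 353.2 in the control arrays. Both COUP-TFII siRNA values were lower than both control values, and the means were 204 ± 9 for COUP-TFII siRNA and 341 ± 18 for control siRNA (SD, n = 2 each). The log2 fold change was −0.70 ± 0.10 (SE, adjusted p by limma = 0.00101). Its dimmer probe set, 211814_s_at, had 25.4 and 27.9 with COUP-TFII siRNA and 36.0 and 47.0 with control siRNA, a log2 fold change of −0.42 that did not pass (limma adjusted p = 0.322).

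The cyclin E genes were also compared within each array, where a constant added to all log2 values of that array cancels. CCNE1 minus CCNE2 on the log2 scale was 0.56 and 0.63 in the COUP-TFII siRNA arrays, against −0.89 and −0.94 in the control arrays. The groups stood 1.51 apart, with a mean of 0.60 ± 0.05 for COUP-TFII siRNA and −0.92 ± 0.03 for control siRNA (SD, n = 2 each). With probe sets averaged, which brings in the CCNE1 probe set without signal, the shift was 0.96. An exact two-sided permutation test gave p = 0.333, which is the smallest that 2 arrays against 2 can give. Only the shift between groups carries meaning, because the probe sets of the 2 genes differ in how strongly they hybridise.

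**Figure D3:**
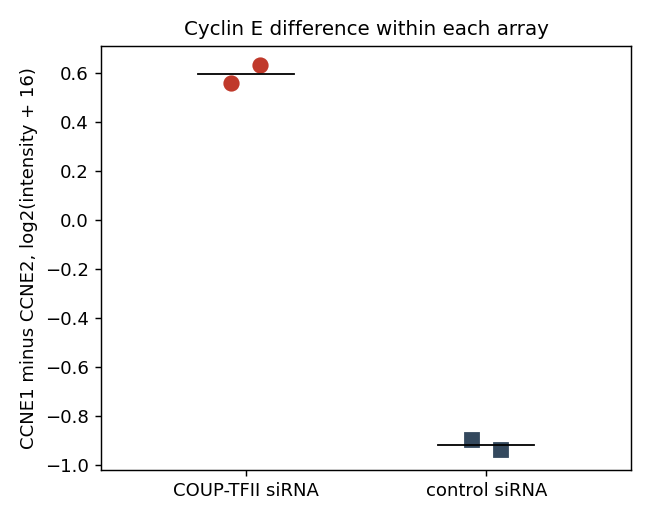
CCNE1 minus CCNE2 in log2(intensity + 16) on each array, COUP-TFII siRNA (circles) left of control siRNA (squares), with bars at the means of 2 arrays. The COUP-TFII siRNA arrays lie at 0.56 and 0.63 and the control arrays at −0.89 and −0.94, a shift of 1.51.

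CCNA2, the cyclin of S phase and G2, changed most among the cyclins. It had 148.3 and 155.1 in the COUP-TFII siRNA arrays, against 591.1 and 541.0 in the control arrays. The control level was thus 3.73 times as high, and the log2 fold change of −1.79 ± 0.10 (SE, adjusted p by limma = 5.51e-06) was the 35th lowest of 19775 genes. The second probe set, 203418_at, had 143.7 and 130.9 with COUP-TFII siRNA and 408.1 and 409.9 with control siRNA, a log2 fold change of −1.47 (limma adjusted p = 0.000145 over all probe sets). Over the 15 alternatives for CCNA2 the log2 fold change ran from −1.89 to −1.55, and CCNA2 passed in each.

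Both B-type cyclins of mitosis fell. CCNB1 had 670.7 and 671.5 in the COUP-TFII siRNA arrays, against 1486 and 1373 in the control arrays. CCNB2 had 377.2 and 394.4 in the COUP-TFII siRNA arrays, against 804.3 and 764.1 in the control arrays. Neither gene's groups overlapped, and control intensities were 2.13 and 2.03 times as high. The log2 fold changes were −1.07 ± 0.07 for CCNB1 and −0.99 ± 0.07 for CCNB2 (SE, adjusted p by limma = 9.18e-06 and 2.81e-05). The second CCNB1 probe set, 228729_at, fell by 1.14 on the log2 scale, with 119.8 and 142.5 in the COUP-TFII siRNA arrays and 319.9 and 294.8 in the control arrays. It did not pass without control replicate 1 or 2 (limma adjusted p = 0.0704 and 0.0622, in a range over all alternatives from 1.25e-08). The 2 other CCNB2 probe sets were dim, with group means from 10.1 to 51.6, and gave −0.26 and −0.23 without passing. With them averaged in, the log2 fold change of CCNB2 was −0.49 and still passed (limma adjusted p = 0.0353, the highest over its alternatives, from 8.75e-14).

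CCNF, the ubiquitin ligase subunit that peaks in G2, had 102.1 and 124.5 with COUP-TFII siRNA and 140.5 and 145.0 with control siRNA. The groups did not overlap, but the COUP-TFII siRNA arrays stood further from each other than the higher of them stood from the lower control array. The log2 fold change of −0.30 ± 0.14 (SE) did not pass (limma adjusted p = 0.187, 95% interval −0.63 to 0.02). It ran from −0.43 to −0.18 with 1 array left out and was −0.08 after centring on housekeeping genes. The second probe set, 204827_s_at, gave −0.25.

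CCNG2, the atypical cyclin linked to arrest and a known target of FOXO factors, rose slightly. Its brightest probe set had 2292 and 2170 in the COUP-TFII siRNA arrays, against 1921 and 1650 in the control arrays, a log2 fold change of 0.32 ± 0.07 (SE, adjusted p by limma = 0.0133). The groups did not overlap, but the call was lost without COUP-TFII siRNA replicate 1 or 2 or without control replicate 2 (limma adjusted p = 0.18, 0.107 and 0.161), and over all alternatives the adjusted p began at 2.3e-05.

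The 5 CCNG2 probe sets disagreed in size and in direction. The largest rise was on 228081_at, with 343.1 and 338.9 for COUP-TFII siRNA and 210.6 and 155.5 for control siRNA, a log2 fold change of 0.86 ± 0.14 (SE). 202770_s_at and 211559_s_at gave 0.38 each, the first of them passing. With 1 array left out 202770_s_at never passed (limma adjusted p = 0.0899 to 0.233), and 228081_at passed only without control replicate 1. The dim 1555056_at went the other way, with 25.9 and 23.9 for COUP-TFII siRNA and 40.7 and 36.3 for control siRNA, at −0.41 without passing. The array's table does not say which transcripts each probe set detects.

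Over all 26 cyclin probe sets, 8 passed as lower and 4 as higher, in a fit over 54613 probe sets of which 5.67% passed as lower and 6.51% as higher (12.2% in all). All 12 were among the 19 whose mean lay above the median probe set. None of the 7 dimmer ones passed. The 8 were 4 without control replicate 1 or 2, and the 4 were 1 without COUP-TFII siRNA replicate 1 or 2 or control replicate 1 and 0 without control replicate 2. Both probe sets passed as lower for CCND1, CCNA2 and CCNB1, 1 of 2 for CCNE2 and 1 of 3 for CCNB2. No cyclin gene had probe sets that passed in both directions.

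**Figure D4:**
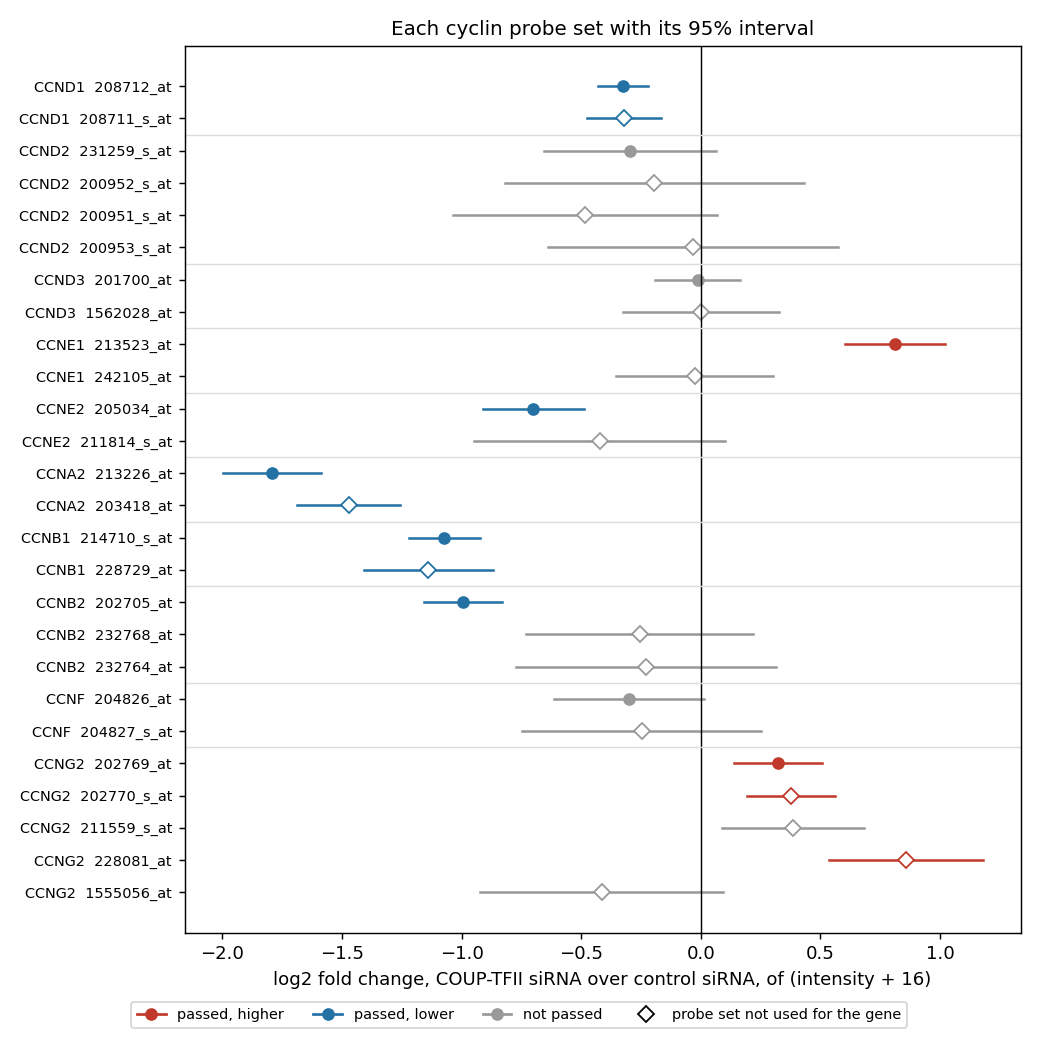
Log2 fold change of intensity + 16, COUP-TFII siRNA over control siRNA, for the 26 cyclin probe sets, with 95% intervals and colours for the limma call over all probe sets. The CCNA2 and CCNB1 pairs lie between −1.79 and −1.07, CCNE1 has 1 probe set at 0.81 and 1 at −0.02, and 4 of 5 CCNG2 probe sets lie above 0.

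The remaining cyclins of the array include several that serve transcription rather than the cell cycle. Among the 16 that were measured, 4 fell, 1 rose and 11 did not pass, where 10.3% of all genes passed as lower and 12.7% as higher. Over the 16, log2 fold changes had a median of −0.06. The number called was 1 without control replicate 1 or 2 and 2 without COUP-TFII siRNA replicate 2. The one that rose was CCNJ, a little studied member, with 334.0 and 271.0 in the COUP-TFII siRNA arrays against 103.7 and 107.9 in the control arrays. Its log2 fold change of 1.38 ± 0.13 (SE, adjusted p by limma = 0.000106) passed with any array left out, and was 0.87 with probe sets averaged. CCNA1, the germ line paralogue of CCNA2, fell by 0.46 (limma adjusted p = 0.0262), with 212.2 and 171.4 for COUP-TFII siRNA against 257.9 and 280.9 for control siRNA. CCNH, the partner of CDK7, fell by 0.32 (limma adjusted p = 0.00256). CCNA1 lost its call without COUP-TFII siRNA replicate 2 (limma adjusted p = 0.163) and without control replicate 1 or 2 (0.127 and 0.223). CCNH lost its call without control replicate 1 or 2 (limma adjusted p = 0.061 and 0.0583). Both lost it after centring on housekeeping genes (0.124 and 0.175), and over all alternatives their adjusted p began at 0.000579 and 0.000134.

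Most of the kinases that cyclins activate passed as lower, but not all of them in every setting. Of 8 CDKs and accessory subunits, 6 fell, 2 did not pass and none rose, against 10.3% of all genes lower and 12.7% higher. Their median log2 fold change was −0.46. CDK2 fell by 0.30, but with probe sets averaged it was at −0.15 and did not pass (limma adjusted p = 0.405). After centring on housekeeping genes CDK2 (−0.07) and CDK4 (−0.11) did not pass (limma adjusted p = 0.579 and 0.146). CDK1, CDK6, CKS1B and CKS2 passed in both settings. CDK2 also lost its call with any array left out (log2 fold change −0.302 to −0.289). CDK4 lost its call without COUP-TFII siRNA replicate 2 or control replicate 2 (−0.39 to −0.29 with 1 array left out). CDK1, the partner of cyclins A and B, had 760.9 and 768.3 in the COUP-TFII siRNA arrays against 2477 and 2220 in the control arrays, a log2 fold change of −1.60 ± 0.07 (SE). CDK6, the partner of D-type cyclins, was lower by 1.77 on the log2 scale (log2 fold change −0.85 with probe sets averaged), and CKS1B, a small CDK-binding subunit, fell by 0.89. Among 6 measured CDK inhibitors, 2 rose (CDKN1A at a log2 fold change of 1.22 and CDKN1C at 0.31), CDKN1B fell by 0.69 and 3 did not pass, beside the same shares of all genes. CDKN1C lost its call without any one of the 4 arrays (limma adjusted p = 0.0558 to 0.137).

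Genes of cyclin destruction passed in both directions. Of 17 genes, 5 fell, 5 rose and the other 7 missed the threshold, where all genes gave 10.3% lower and 12.7% higher. Their log2 fold changes had a median of −0.0041, and 6 in all were called without COUP-TFII siRNA replicate 1 or either control array. Genes of the anaphase-promoting complex pathway, which marks cyclins A and B for destruction, were called in both directions. UBE2C, its ubiquitin-conjugating enzyme, had 981.1 and 1101 in the COUP-TFII siRNA arrays against 2709 and 2748 in the control arrays, a log2 fold change of −1.38. Its activator CDC20 fell by 1.20 and its chain-extending enzyme UBE2S by 1.13. Its inhibitor FBXO5 (log2 fold change −0.69) and its subunit CDC27 (−0.32) were also lower, whereas FZR1, the activator that follows CDC20, was higher at 0.43. Both CDC27 and FZR1 lost their calls with any one array left out (limma adjusted p = 0.077 to 0.304 and 0.0614 to 0.225). The other genes that rose were BTRC (0.96, but 0.39 and not passing with probe sets averaged, limma adjusted p = 0.123), FBXL18 (0.76), AMBRA1 (0.56) and SKP1 (0.14). AMBRA1, which targets D-type cyclins, passed in 1 of the 4 fits without an array, and SKP1 in none. Averaging probe sets left AMBRA1 at 0.18 and SKP1 at 0.07, neither of them passing (limma adjusted p = 0.526 and 0.354). FBXW7, the receptor that marks cyclin E, did not pass, at a log2 fold change of 0.04.

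Among 25 regulators of cyclin gene transcription 7 fell, 3 rose and 15 missed the threshold, with 10.3% lower and 12.7% higher over all genes. Their median on the log2 fold scale was −0.15, and 5 in all were called without control replicate 1 and 6 without control replicate 2. E2F8, a repressor of the E2F family that is itself induced at G1/S, had 50.2 and 71.2 in the COUP-TFII siRNA arrays against 202.6 and 197.7 in the control arrays, a log2 fold change of −1.51. MYBL2, which joins the MuvB complex at G2 and mitosis genes, fell by 1.18 and MYC by 0.98. The other 4 that fell were RBL1, a pocket protein of the DREAM complex, at a log2 fold change of −0.67, FOXM1, a forkhead activator of mitotic genes, at −0.63, and the repressors E2F5 (−0.47) and E2F7 (−0.39). FOXO1 (0.70), FOXO3 (0.51) and LIN37 (0.37), a subunit of MuvB, rose. E2F1 (−0.14), RB1 (0.01) and the 3 subunits of NF-Y, NFYA (0.02), NFYB (0.20) and NFYC (0.15), did not pass. With 1 array left out FOXO1 and FOXO3 always passed, FOXM1 and E2F5 lost their calls without control replicate 1 or 2, RBL1 and E2F7 passed in 1 of 4 fits each and LIN37 in none (limma adjusted p = 0.0921 to 0.274). With probe sets averaged RBL1 (−0.27), E2F5 (−0.24), E2F7 (0.04) and LIN37 (0.19) did not pass (limma adjusted p = 0.343, 0.213, 0.88 and 0.493).

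Genes whose 4 log2 values, centred on their own means, lay closest to those of CCNA2 by Euclidean distance over 9886 genes were JAZF1 (distance 0.060), HJURP (0.077) and LIFR (0.092). Closest to CCNE1 were RHPN2 (0.027), GRAMD1C (0.042) and SAT2 (0.043). With 4 arrays in 2 groups this measure reads mainly the size of the change.

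**Figure D5:**
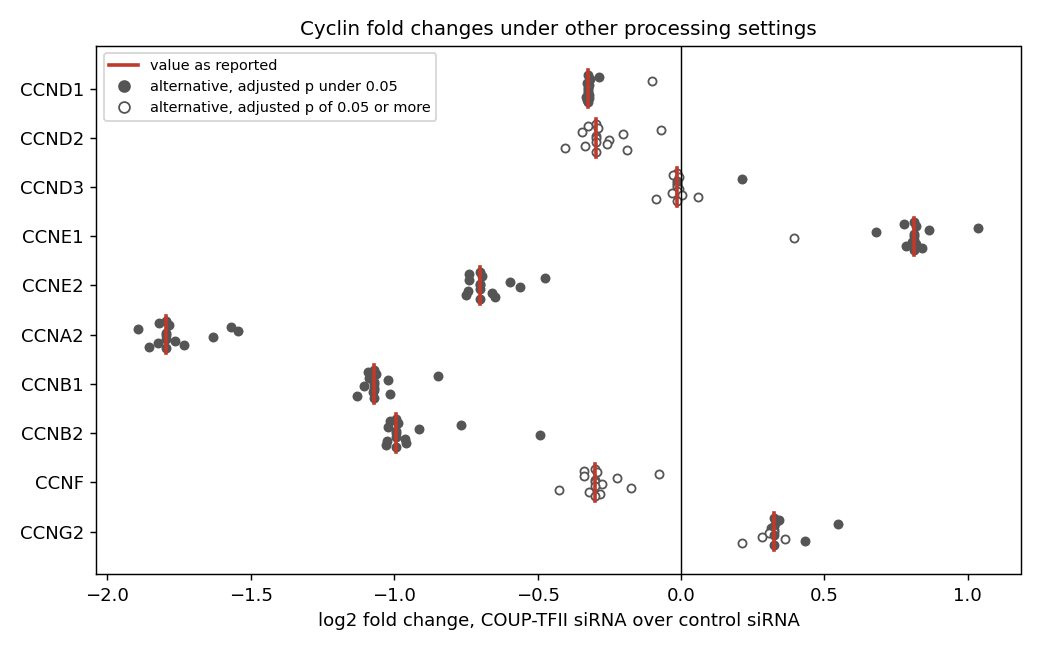
Log2 fold change of each cyclin gene as reported (red bar) and under 15 other processing settings (circles, filled where the adjusted p was under 0.05). CCNA2, CCNB1, CCNB2 and CCNE2 are filled throughout, CCNE1 has 1 open circle at 0.39, and CCND3 has 1 filled circle at 0.21.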

How the data were processed

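PC3 total RNA was isolated with Trizol, amplified by a 3′ in vitro transcription kit and labelled with biotin for Affymetrix arrays, per the labels' protocols. Each deposited value is an intensity per probe set, as the authors made it, on a linear scale and with no detection calls. How background was corrected and probes were summarised and normalized is not given in the sources used here. Array medians differed by 3.66%, under the limit of 5% set for scaling, so none was applied. Precision is limited by there being 4 arrays.

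Of 54675 probe sets, 62 controls were left out, 41091 named 1 gene, 1801 several and 11721 none. Symbols were updated by Entrez identifier through RefSeq genes of GRCh38.p14, which matched 41037. A gene was represented by its brightest probe set (mean of the 4 arrays), avoiding _x_at where possible. limma 3.58.1 (R 4.3.3, eBayes with intensity trend) was fitted on log2(intensity + 16), once over 19775 genes and once over 54613 probe sets, with Benjamini-Hochberg adjustment over each. The test was tried on simulated data. Promoters were searched with Python 3.11.15 and figures drawn with matplotlib 3.10.9.

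The members and lists were chosen with earlier results of these data known. Named genes were all 10 cyclins, up to 3 genes with the largest passing change from each related list, and 3 nearest patterns for CCNA2 and CCNE1. Other genes named from these lists were chosen after their values were seen. Alternatives were pseudocounts of 1 and 64, other normalizations, leaving out dim probe sets, a replicate block, another prior variance, other probe set choices, a threshold of 0.01 and each array left out.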

Additional observations from a re-analysis of the deposited data

How the results depend on the processing

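The count of 5 cyclins lower ranged from 4 to 5 over 15 alternatives and was 5 with any array left out. The count of 2 cyclins higher was 1 without the intensity trend, 0 with probe sets averaged, 1 at a threshold of 0.01 and 1 to 2 with 1 array left out. Cyclin probe sets lower (8) were 3 without the trend and 4 to 7 with 1 array left out, and those higher (4) were 0 without the trend, 2 at 0.01 and 0 to 1 with 1 array left out. Genes lower (2039) numbered 1130 after centring on housekeeping genes, 814 without the trend, 1318 at 0.01 and 886 to 1370 with 1 array left out. Genes higher (2519) numbered 6321, 754 and 1450 under the first 3 of these, 1631 with probe sets averaged and 882 to 1222 with 1 array left out, and that centring raised the higher share of calls to 84.8%, against 55.3%.

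Among cyclins that had not passed, the sign of CCND3 changed to 0.21 after that centring, and with 1 array left out ran from −0.088 to 0.060 (0.0034 without COUP-TFII siRNA replicate 2 and 0.060 without control replicate 1). That centring also turned the CCND2 probe sets 200952_s_at (0.030) and 200953_s_at (0.19) and the CCNE1 probe set 242105_at (0.20). With 1 array left out 200953_s_at ran from −0.30 to 0.24 (above 0 without COUP-TFII siRNA replicate 1 or control replicate 2) and 200952_s_at from −0.46 to 0.067 (above 0 without control replicate 2). CCND1 and CCNG2 also lost their calls without the trend (limma adjusted p = 0.0983 and 0.171), and CCNG2 with probe sets averaged (limma adjusted p = 0.0728). The cause was not tested beyond the settings' own construction. Fits without an array leave a group with 1 array, assumed to vary like the other group. The lowest adjusted p quoted over alternatives came from leaving out dim probe sets, except for CCNG2, where it came from centring on housekeeping genes. With 4 arrays and 2 residual degrees of freedom, such small values rest on the variance pooled over genes or probe sets.

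The titles give both groups replicate numbers 1 and 2, but nothing says that a number marks a shared batch, and the replicate differences of the groups correlated at 0.010. With the replicate block, 5 cyclins were lower and 2 higher, 8 cyclin probe sets lower and 5 higher, and 2277 genes lower and 2849 higher.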
